A study of Mus musculus with 43 samples.

Results

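Xlr3 and Xlr4 are small gene families on the mouse X chromosome. Their 6 members, Xlr3a, Xlr3b, Xlr3c, Xlr4a, Xlr4b and Xlr4c, were looked up by symbol and were all found among the 56980 genes of the count table. The 43 libraries came from C57BL/6JRccHsd mice electroporated in utero at E15.5, whose GFP+ L2/3 neurons were sorted from somatosensory cortex for RNA-seq, and fell into 13 groups of genotype, stage and sex. At E19 there were 4 libraries per sex of WT, Cux1 KO (germline Cux1ΔC/ΔC) and Cux2 KO (Cux2-/-) neurons, which had received pCAG-GFP. At P4, WT and Cux2 KO neurons with the same plasmid gave 3 libraries for each sex, and Cux1 KO males gave 2. The latter came from Cux1 f/Δ23 mice given pCALNL-GFP with pCAG-iCre, so that only electroporated cells became Cux1Δ23/Δ23. WT neurons at P7 gave 2 female and 3 male libraries. The P4 Cux1 KO group thus differed from its WT group in breeding line and plasmid mix as well as in Cux1, and these cannot be told apart. The study describes more death of Cux1 KO neurons when the tissue was dissociated. The number of animals behind a library is not stated, so p-values measure the spread between libraries, and in these bulk samples fewer cells of a type and less RNA per cell cannot be told apart.

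The Xlr genes (X-linked lymphocyte regulated) encode nuclear proteins related to SYCP3, a component of the meiotic chromosome axis. In neurons XLR3B is known from RNA granules of dendrites, where it holds back the transport of mRNAs such as Camk2a, and its gene is known to be raised when the chromatin remodeler ATRX is lost. Xlr3b and Xlr4b have earlier been reported as genes that CUX1 and CUX2 regulate in the formation of dendritic spines. Xlr3b, Xlr4b and Xlr4c are known as imprinted genes whose paternal copy is kept low.

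On GRCm39 the members lie within 201 kb of chromosome X, chrX:72117936-72318796, and each is protein coding in GENCODE M39. Xlr3b (ENSMUSG00000073125, chrX:72235091-72246951) and Xlr4b (ENSMUSG00000067768, chrX:72257908-72266455) are on the + strand. Xlr3a (ENSMUSG00000057836, chrX:72129893-72140703), Xlr3c (ENSMUSG00000058147, chrX:72298139-72318796), Xlr4a (ENSMUSG00000079845, chrX:72117936-72126140) and Xlr4c (ENSMUSG00000031362, chrX:72277287-72286744) are on the - strand. The first 60 coding bases of each canonical transcript are shown because reads were 60 nucleotides long, so likeness at this scale sets how well the copies can be counted apart. Capitals mark the 2 bases at which Xlr3a differs from the other Xlr3 copies.
Xlr3a: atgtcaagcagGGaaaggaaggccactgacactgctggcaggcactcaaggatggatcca
Xlr3b: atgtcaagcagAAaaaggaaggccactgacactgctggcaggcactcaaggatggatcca
Xlr3c: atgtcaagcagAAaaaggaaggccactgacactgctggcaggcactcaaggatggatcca
Xlr4a: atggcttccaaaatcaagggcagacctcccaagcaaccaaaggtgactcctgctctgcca
Xlr4b: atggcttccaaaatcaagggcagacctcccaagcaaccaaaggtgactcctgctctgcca
Xlr4c: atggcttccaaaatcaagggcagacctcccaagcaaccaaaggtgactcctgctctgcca
In this stretch Xlr3b and Xlr3c were identical, and so were the 3 Xlr4 copies. Over the whole coding sequence Xlr3b and Xlr3c were identical at 99.41% of aligned positions, Xlr3a and Xlr3b at 96.02%, and the Xlr4 copies among themselves at 98.91% to 99.53%. Between an Xlr3 and an Xlr4 copy the identity was 56.71% to 58.17%. Each 60-base window of the canonical transcript was searched in the other members' transcripts and in the genome outside the gene. Of these windows, 57.91% for Xlr3a, 85.91% for Xlr3b and 74.08% for Xlr3c also occurred there. For Xlr4a, Xlr4b and Xlr4c the shares were 63.63%, 78.79% and 70.95%. In transcripts of the other copies of the same family alone, they were 52.64%, 63.74% and 64.43% for Xlr3. For Xlr4 they were 60.31%, 62.36% and 63.11%. Per the study's methods only primary alignments were counted, so a read that matches several copies equally well could be counted at 1 of them, and whether such reads were kept is not given in the sources used here. The split between copies is therefore uncertain, and the sums over the 3 Xlr3 and the 3 Xlr4 copies are given beside them. Xlr5a, on the - strand in GENCODE M39, overlaps Xlr3c and Xlr4c on their own strand and Xlr3b and Xlr4b on the other. Its row held 4 counts over all libraries, and as no strand setting is stated, its reads could not be told apart from theirs.

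CUX1 is known to bind CCAAT boxes, so the promoters of the pair most often named as CUX targets are shown, as windows of 300 bases around the start. They are RefSeq sequences of a GRCm38.p6 table, each found once on chromosome X of GRCm39, to which the positions refer, and capitals mark CCAAT.
Xlr3b, chrX:72235535-72235834, + strand: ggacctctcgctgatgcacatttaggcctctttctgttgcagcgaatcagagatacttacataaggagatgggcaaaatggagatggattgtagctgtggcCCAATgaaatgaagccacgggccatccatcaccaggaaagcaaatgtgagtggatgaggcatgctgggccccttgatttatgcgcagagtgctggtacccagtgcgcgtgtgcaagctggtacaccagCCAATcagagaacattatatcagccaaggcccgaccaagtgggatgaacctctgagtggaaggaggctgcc
Xlr4b, chrX:72257689-72257988, + strand: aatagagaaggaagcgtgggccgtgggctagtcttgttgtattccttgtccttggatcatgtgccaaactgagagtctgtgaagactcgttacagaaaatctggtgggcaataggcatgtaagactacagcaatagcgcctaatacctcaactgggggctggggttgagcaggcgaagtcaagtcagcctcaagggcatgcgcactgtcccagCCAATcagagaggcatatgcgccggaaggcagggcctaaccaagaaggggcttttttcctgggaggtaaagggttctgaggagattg
CCAAT, searched on both strands, occurred 4 times in the promoter of Xlr3a, 2 times in that of Xlr3b, 3 times in that of Xlr3c and 1 time in that of each Xlr4 copy. Among 32851 RefSeq promoters of the same length, 37.41% held it at least once, 11.7% at least 2 times and 3.37% at least 3 times. ATCGAT was in no member's promoter and in 0.9254% of all promoters, and ATCAAT, on both strands, was in that of Xlr4c among the members and in 7.54% of all. These matches describe letters in the window, and binding was not measured.

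Libraries held 13321095 to 20715732 counts at E19, 19499125 to 60559585 at P4 and 15312029 to 27633827 at P7. Of the 10 upper-layer neuron markers, 9 or 10 reached a mean of 1 CPM (counts scaled to library size with TMM factors) in every group. This cutoff shows detection only. In WT libraries the upper-layer marker sum was 4314 to 6250 CPM at E19, 865 to 1098 at P4 and 487 to 668 at P7. Astrocyte and radial glia markers summed to 1942 to 2784, 3422 to 6459 and 7865 to 11843 CPM at these stages. Oligodendrocyte lineage markers summed to 475 to 715, 610 to 2893 and 3177 to 4880 CPM. At P4 and P7 the astrocyte and radial glia sum was thus above the upper-layer sum in every WT library. At P7 the oligodendrocyte lineage sum was too. The lists hold different genes, so the sums are not shares of cells. Groups are named by their labels, which say L2/3 neurons, and Xlr levels here are those of the libraries. Of the 9 lymphocyte markers, 1 to 3 reached a mean of 1 CPM in a group. The T cell gene Cd3e and the B cell gene Ms4a1 were at 0 in 35 and 41 libraries. Others of the list were detected more widely. Ptprc and Lck were at 0 in 1 and 2 libraries and reached 24.1 and 9.68 CPM, and Cd79b, at 0 in 18, reached 5.96. The targeted genes were not called lower by gene-level counts. Cux1 was at 312 ± 26.9 CPM (SD, n = 4) in Cux1 KO females at E19 against 423 ± 65.7 in WT (edgeR adjusted p = 0.286), and Cux2 at 352 ± 62.5 in Cux2 KO males at E19 against 412 ± 77.6 (edgeR adjusted p = 0.731). In P4 males Cux1 was at 126 ± 60.2 CPM in Cux1 KO (n = 2) and at 115 ± 36.8 in WT (n = 3). A count over the whole gene does not read out alleles that remove a part of it, so it checks no label here.

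Xlr3b gave most of the signal of the family. Its mean over the 43 libraries was 6.39 CPM, or 1.27 CPM per kb of exon, against 0.631 for Xlr3a and 0.795 for Xlr3c on the scale per kb. The Xlr4 copies were lower, at 0.215 CPM per kb for Xlr4a, 0.0898 for Xlr4b and 0.0703 for Xlr4c, and they were at 0 in 5, 8 and 9 libraries. Xlr3b made up a median of 53.7% of the Xlr3 counts of a library (14.9% to 66.5% over 41 libraries with any), and Xlr4a a median of 49.4% of the Xlr4 counts (40 libraries). Xlr3 counts exceeded Xlr4 counts by a median factor of 12.8, with 1.63 and 43.8 as the extremes.

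By the Xlr3 sum, WT libraries at P7 were at the high end of the groups and Cux1 KO males at P4 at the low end. WT males and females at P7 had means of 24.4 ± 10.3 and 23.5 ± 4.84 CPM (SD), and Cux2 KO females at P4 had 23.4 ± 7.83. WT males at P4 had 18.3 ± 17.5 and Cux2 KO males at P4 14.9 ± 11.9. The E19 groups followed, with WT males at 12.3 ± 8.01, WT females at 9.91 ± 8.33, Cux1 KO males at 9.34 ± 7.33, Cux1 KO females at 9.03 ± 5.05 and Cux2 KO females at 8.54 ± 5.35 CPM. At the low end were WT females at P4 with 2.96 ± 2.59 CPM, Cux2 KO males at E19 with 2.95 ± 1.46, and Cux1 KO males at P4 with 0. Every pair of neighbours in this order overlapped in range except the last. The Xlr4 sum ran from 2.12 ± 1.29 CPM in Cux2 KO females at P4 and 1.86 ± 1.45 in WT males at P7 to 0.413 ± 0.157 in Cux2 KO males at E19, with Cux1 KO males at P4 again at 0.

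**Figure D1:**
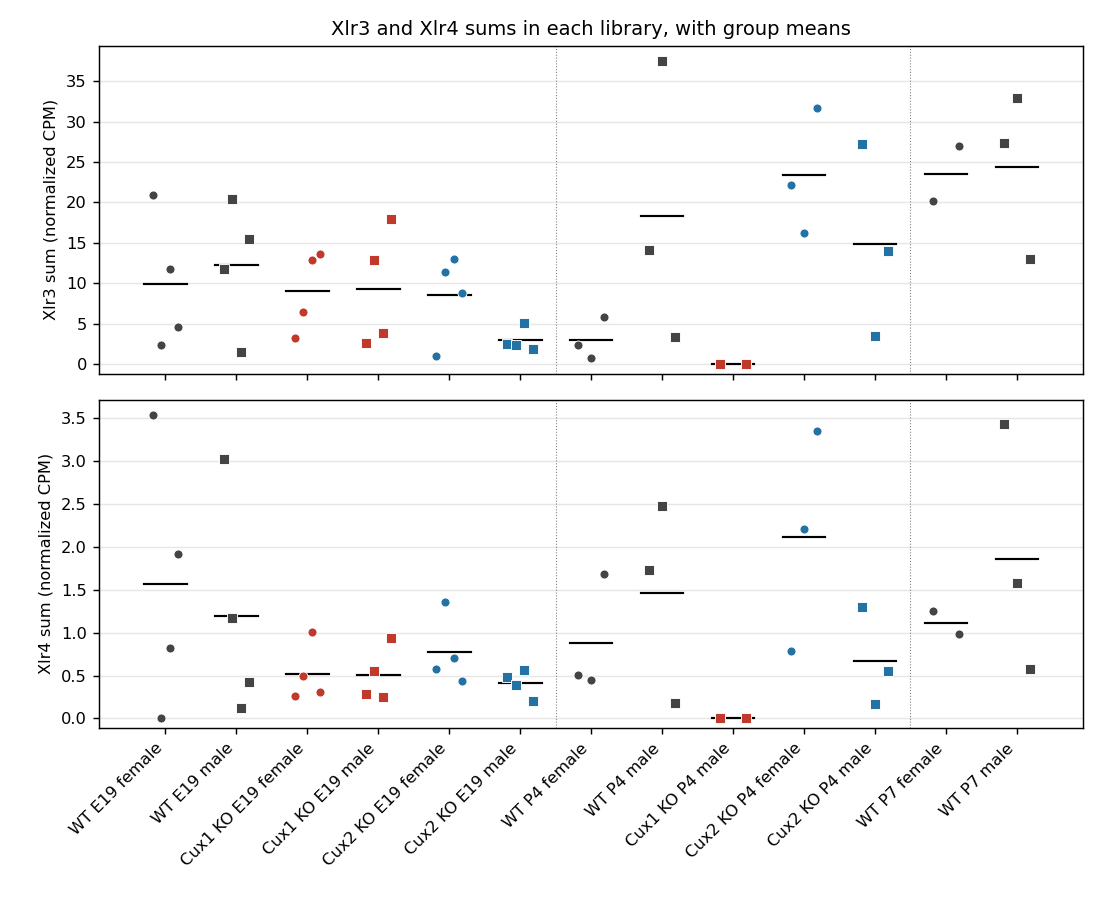
The Xlr3 sum and the Xlr4 sum in CPM for each library (circles female, squares male), by group, with the group mean as a line. Both sums were 0 in the 2 Cux1 KO libraries at P4, and in most other groups libraries of 1 group differed several-fold.

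The most marked feature of the Xlr3 sum was how far libraries of a group lay apart. In WT males at E19 it was 11.8, 20.5, 1.55 and 15.5 CPM in replicates 1 to 4, and in WT females 20.9, 2.38, 11.8 and 4.64. In Cux2 KO females at E19 the values were 0.94, 11.4, 12.99 and 8.82 CPM. A single library, or a pair of them, was thus low in each of these groups, and the highest library exceeded the lowest 13.2-fold, 8.76-fold and 13.8-fold. The coefficient of variation (CV) was 65.1%, 84.0% and 62.6%, where genes with a group mean of 5 to 40 CPM had a median CV of 16.3%, 15.3% and 17.1%, and 0.341%, 0.181% and 0.77% of those genes varied as much. In Cux1 KO males at E19, at 2.67, 12.9, 3.85 and 17.9 CPM, the CV was 78.5% and that of 0.116% of genes was as large. In WT females at P4 and Cux2 KO males at E19 the sum itself averaged under 5 CPM, so no share is given for them. The spread was smaller in Cux2 KO females at P4 (CV 33.5%, as large in 24.0% of genes) and in WT at P7 (20.6% in females and 42.1% in males, as large in 48.4% and 14.6%). The copies moved together in this spread. Over the 43 libraries, with each stage's mean removed, log2 values of Xlr3b and Xlr3c had a Pearson r of 0.965, those of Xlr3a and Xlr3b 0.892, and the Xlr3 and Xlr4 sums 0.761. Without the 2 Cux1 KO libraries at P4, an alternative chosen after the data had been seen, r was 0.943, 0.830 and 0.638. The points share libraries, and near-identical copies share reads, so these values are descriptions.

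**Figure D2:**
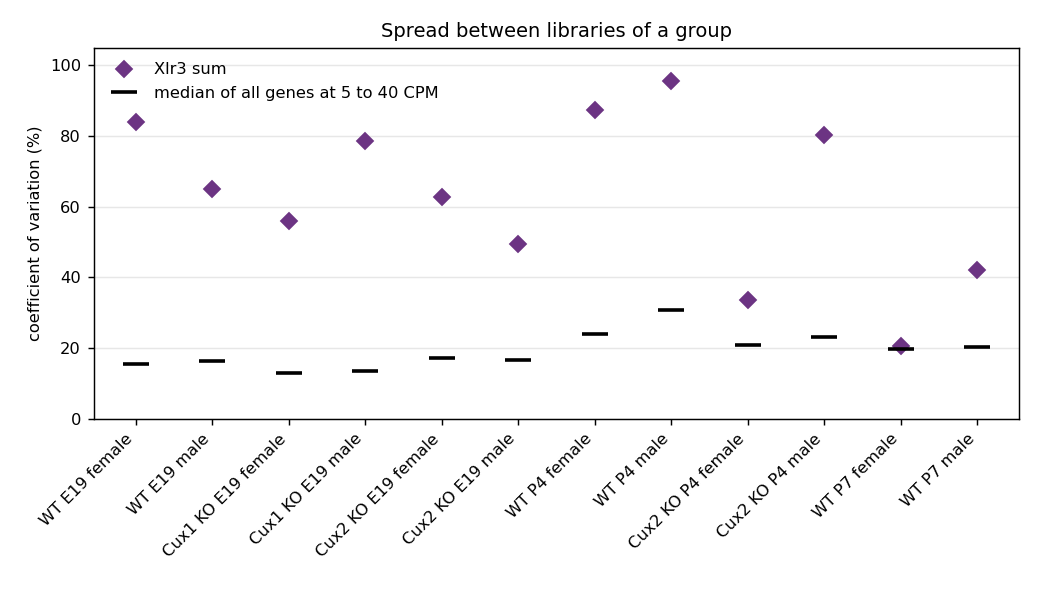
Coefficient of variation of the Xlr3 sum among the libraries of each group, in percent, beside the median over genes with a group mean of 5 to 40 CPM. The Xlr3 sum lay above this median in each of the 12 groups in which it was detected, but in WT P4 females (2.96 CPM) and Cux2 KO E19 males (2.95 CPM) its own mean was below that range, and its largest value was 95.5%, in WT males at P4.

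No count of any member was found in either Cux1 KO male library at P4. In WT males at P4 the Xlr3 sum was 14.1, 37.5 and 3.30 CPM (785, 1483 and 226 counts), and the Xlr4 sum 1.73, 2.48 and 0.175 CPM. Both sums were 0 in the Cux1 KO libraries, which held 19499125 and 40421655 counts, so the groups did not overlap. Against a floor of 3 counts over the Cux1 KO group, the Xlr3 sum was at least 385-fold lower and the Xlr4 sum at least 30.7-fold lower than the WT mean. These bounds cover counting error only, and they rest on the WT mean. Without WT replicate 2, the highest library and an alternative added after the data had been seen, the bound of the Xlr3 sum was 183-fold and that of the Xlr4 sum 19.99-fold.

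Among the single copies, Xlr3b had 7.19, 22.2 and 1.48 CPM in the WT males and was at least 217-fold lower in Cux1 KO. Xlr3a had 3.78, 6.23 and 0.526 CPM and Xlr3c 3.15, 9.09 and 1.30 CPM in WT, with bounds of 73.8-fold and 94.9-fold. Without WT replicate 2 the bounds of Xlr3b, Xlr3a and Xlr3c were 91.1-fold, 45.2-fold and 46.7-fold. For Xlr4a (0.557, 1.65 and 0.073 CPM), Xlr4b (0.971, 0.506 and 0.0584 CPM) and Xlr4c (0.198, 0.329 and 0.0438 CPM) the bounds were 16.0-fold, 10.8-fold and 4.00-fold, and the lowest on leaving out a WT library were 6.63-fold and 2.54-fold for Xlr4a and Xlr4c (without replicate 2) and 5.94-fold for Xlr4b (without replicate 1). WT replicate 3 was the lowest of the WT libraries for all 6 copies, and each copy was above 0 in each WT library. Of the 13 other rows of the family and its paralogs, 8 were at 0 in the WT males too and say nothing. The other 5, Sycp3, Xlr, Xlr3d-ps, Xlr3e-ps and Xlr4e-ps, had counts in at least 1 WT male and none in either Cux1 KO library. In the 3 WT males the pseudogene Xlr3d-ps had 20, 52 and 14 counts, Xlr had 57, 0 and 0, and Xlr4e-ps 3, 1 and 0. The WT males held 146881417 counts in all and the Cux1 KO libraries 59920780. The share of all genes with so few WT counts that were at 0 in Cux1 KO was not computed, so these 5 rows have no background.

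**Figure D3:**
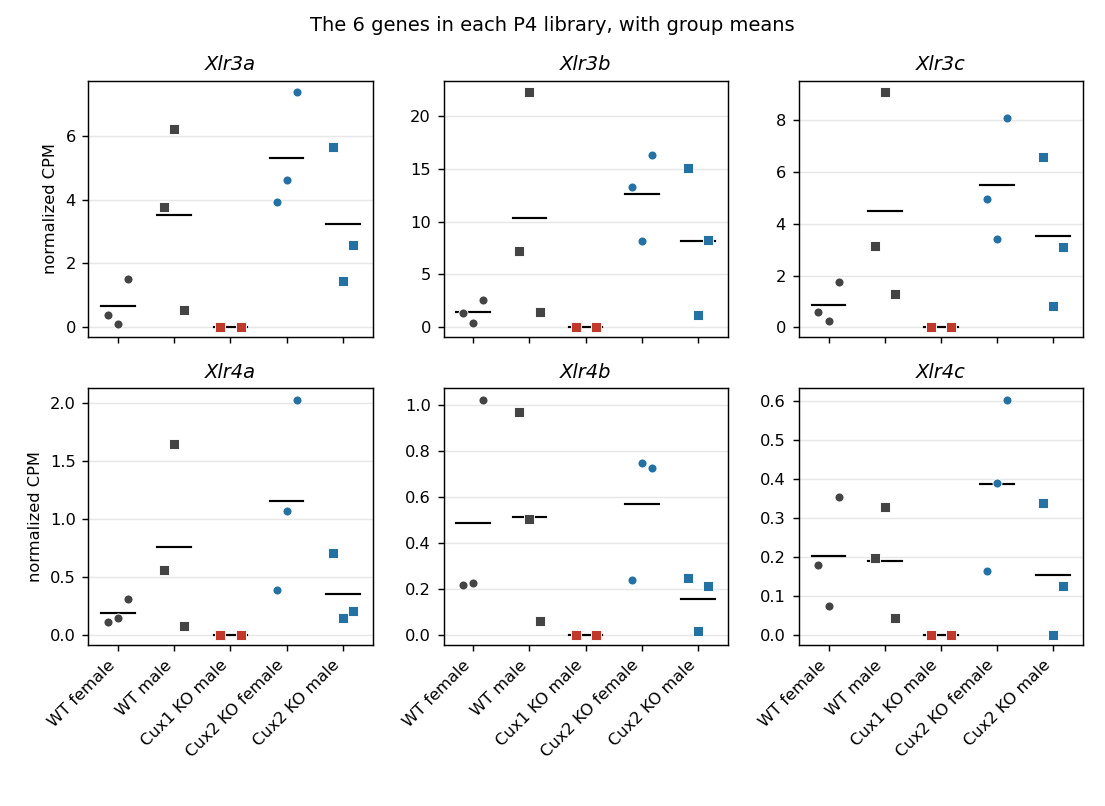
CPM of each Xlr3 and Xlr4 copy in every P4 library (points), by group, with group means as lines. All 6 copies were at 0 in the Cux1 KO males, and Cux2 KO females lay above WT females for Xlr3a, Xlr3b, Xlr3c and Xlr4a. The share of all genes that separate in the latter way was not computed.

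The test of this difference depended on the tool. By edgeR's quasi-likelihood test none of the 5 copies tested was called, where calls made up 0% of 19601 genes, with adjusted p of 0.0996 to 0.205 for the copies, 0.0936 for the Xlr3 sum and 0.152 for the Xlr4 sum. All 5 had an unadjusted p under 0.05, as did 4021 genes (20.5%). Being at 0 in Cux1 KO, the 5 copies passed the filter on low counts through the WT males alone. This selection favours a low p, so these p-values are no separate support for the difference. Xlr4c did not pass the filter. DESeq2 without a fold change prior called Xlr3a (adjusted p = 0.000416), Xlr3b (6.11e-06) and Xlr3c (5.37e-05) and both sums (1.11e-07 and 0.0127), and called 15.1% of all genes. DESeq2 with a prior called Xlr3b, Xlr3c and the Xlr3 sum (adjusted p = 0.0225, 0.0204 and 0.00105) and 12.3% of genes. With all P4 groups in one edgeR fit, all 5 copies and both sums were called (adjusted p = 0.00481 for the Xlr3 sum and 0.0149 for the Xlr4 sum) and so were 11% of genes. The fold changes fitted against a group at 0 depend on the prior count and are not given as sizes.

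The Cux1 KO libraries at P4 stood apart in more than these genes. They had 14160 and 15258 genes at 1 CPM or more, against 16138 to 16995 in the 12 other P4 libraries. Of the genes with a WT male mean of 2 to 5 CPM, 469 of 2340 were at 0 in both, as were 7.57% at 5 to 10 CPM, 1.53% at 10 to 20, 0.255% (7 of 2745) at 20 to 40 and 0% of 2671 at 40 to 80. Xlr3b, with a WT mean of 10.3 CPM, lay in the range of 10 to 20, Xlr3a and Xlr3c, at 3.51 and 4.51, in that of 2 to 5, and the Xlr4 copies below all of these ranges.

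**Figure D4:**
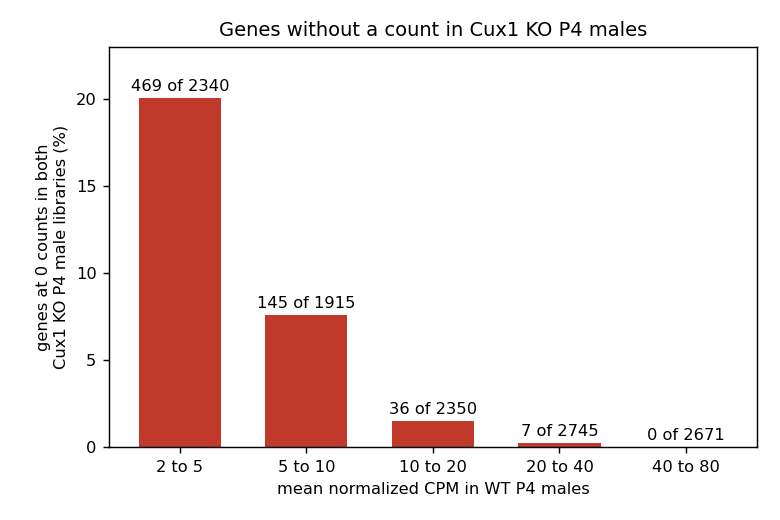
Percent of genes with no count in either Cux1 KO male library at P4, by the mean level in WT males at P4 in CPM. The share was highest at 2 to 5 CPM and 1.53% at 10 to 20 CPM, the range that holds Xlr3b.

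The sums of several marker lists also differed between these groups. Microglia markers summed to 18.4 and 22.3 CPM in the Cux1 KO libraries against 56.2 to 84.4 in WT males, endothelial markers to 0 and 33.2 against 103 to 208, and interneuron markers to 82.0 and 152 against 298 to 471. Oligodendrocyte lineage markers summed to 1070 and 1207 CPM against 2043 to 2893, and cell cycle genes to 304 and 791 against 1034 to 1261. Upper-layer markers were higher, at 1434 and 1933 CPM against 865 to 1098, and astrocyte and radial glia markers overlapped. The part of these differences, of the plasmids and of the low number of genes detected in the loss of Xlr counts was not tested. Genes beside the members were still counted. F8a, which lies inside the cluster and encodes a huntingtin-associated protein, had means of 25.3 CPM in Cux1 KO and 18.3 in WT males, Cetn2, encoding a centriole protein, 151 and 129, and Nsdhl, a gene of cholesterol synthesis, 180 and 156. Farther along, the plexin gene Plxnb3 had 0.703 CPM against 24.96.

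In Cux2 KO females at P4 the 3 Xlr3 copies and Xlr4a had higher means than in WT females, with no overlap of the libraries. The share of all genes that separate in this way was not computed. Near-identical copies share reads, so these are not independent results. The Xlr3 sum was 2.30, 0.771 and 5.82 CPM in WT and 22.2, 16.2 and 31.7 in Cux2 KO females. The lowest mutant library was thus above the highest WT library, and the means differed 7.89-fold (log2 fold change 3.01 ± 0.71 SE, edgeR adjusted p = 0.494). Leaving out 1 library gave log2 fold changes of 2.52 (without WT replicate 2) to 3.95 (without WT replicate 3). Xlr3b, the copy known from dendritic RNA granules, was at 1.33, 0.423 and 2.58 CPM in WT and 13.3, 8.19 and 16.3 in Cux2 KO, 8.72-fold apart (log2 fold change 3.15 ± 0.66 SE, edgeR adjusted p = 0.451).

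The other Xlr3 copies showed the same separation. Xlr3a was at 0.395, 0.0995 and 1.51 CPM in WT and 3.92, 4.63 and 7.36 in Cux2 KO females, and Xlr3c at 0.575, 0.249 and 1.73 against 4.97, 3.42 and 8.09. Xlr4a was at 0.108, 0.149 and 0.311 CPM against 0.385, 1.07 and 2.03. Xlr4b overlapped, at 0.216, 0.224 and 1.02 CPM in WT and 0.238, 0.748 and 0.724 in Cux2 KO, and so did Xlr4c and the Xlr4 sum (log2 fold change 1.27 ± 0.84 SE, edgeR adjusted p = 0.756). By edgeR none of the 6 copies was called, and calls made up 0% of 19538 genes. An unadjusted p under 0.05 was found for 4 copies and for 1443 genes. DESeq2 without a prior called Xlr3b (adjusted p = 0.000662) and the Xlr3 sum (0.00176) among 0.828% of genes, and with a prior both were called again (adjusted p = 0.00364 and 0.00782) among 0.238% of genes, at a shrunken log2 fold change of 1.14 and 1.08. Microglia markers summed to 87.2 to 302 CPM in Cux2 KO females against 67.5 to 94.97 in WT, endothelial markers to 60.2 to 191 against 50.5 to 67.0 and interneuron markers to 289 to 498 against 520 to 1021, and their part in the difference was not tested. Upper-layer markers overlapped, at 904 to 1023 CPM against 895 to 1014.

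Males of the same stage and genotype gave overlapping values. The Xlr3 sum was 27.3, 3.45 and 13.95 CPM in Cux2 KO males, within the 3.30 to 37.5 CPM of the WT males (-0.31 ± 1.00 SE on the log2 scale, edgeR adjusted p = 0.999). The Xlr4 sum was 1.30, 0.165 and 0.548 CPM, at -1.14 ± 1.19. By edgeR 0% of 19720 genes and none of 5 copies were called, with 1136 genes and no copy at an unadjusted p under 0.05, and DESeq2 without a prior called 1.6% of genes and no copy. The difference between the sexes was itself tested. For the Xlr3 sum the Cux2 KO effect was 3.30 ± 1.35 higher (log2, SE) in females than in males (edgeR adjusted p = 0.68), and for the Xlr4 sum 2.39 ± 1.52 higher (adjusted p = 0.739). No copy was called, among 0% of genes by edgeR and 1.24% by DESeq2 without a prior. An unadjusted p under 0.05 was found for 2 copies and for 7.27% of all genes. The female and male comparisons use separate WT libraries, and the WT means themselves were 2.96 (females) and 18.3 CPM (males), respectively.

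At E19 the Cux2 KO males had lower Xlr3 means than WT males. The Xlr3 sum was 2.50, 2.30, 5.11 and 1.90 CPM in Cux2 KO males against 11.8, 20.5, 1.55 and 15.5 in WT males, a WT mean 4.17-fold higher (log2 fold change -2.08 ± 0.57 SE, edgeR adjusted p = 0.415). WT replicate 3 was below every Cux2 KO library and the other 3 above all of them. Xlr3b was at 1.34, 0.722, 2.20 and 1.08 CPM against 6.41, 10.8, 0.869 and 7.51 (log2 fold change -2.27 ± 0.59 SE, edgeR adjusted p = 0.375). Xlr3a and Xlr3c had WT means 3.07-fold and 4.69-fold higher (log2 fold changes -1.63 ± 0.77 and -2.23 ± 0.68 SE, edgeR adjusted p = 0.63 and 0.512). The Xlr4 sum, too low to be tested, was at 0.489, 0.394, 0.568 and 0.203 CPM against 3.03, 1.18, 0.124 and 0.429.

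Whether the difference in E19 males was called rested on WT replicate 3 and on the filter. By edgeR none of the 3 copies tested was called, against 0.121% of genes. An unadjusted p under 0.05 was found for 2 copies and for 7.94% of all genes. Without WT replicate 3 the Xlr3 sum (log2 fold change -2.43, edgeR adjusted p = 0.0249) and Xlr3b (-2.64, 0.0292) were called. With no filter on low counts both were called too (adjusted p = 0.0306 and 0.033), among 0.212% of genes. DESeq2 called Xlr3b without a prior (adjusted p = 0.0137, 0.455% of genes) and with one (adjusted p = 0.0381, 0.363% of genes), but did not call the Xlr3 sum (adjusted p = 0.268 and 0.382). In Cux2 KO females at E19 the Xlr3 sum overlapped WT (-0.21 ± 0.65 SE on the log2 scale, edgeR adjusted p = 0.984), the Xlr4 sum was at -1.02 ± 0.80 (0.977), and none of 3 copies was called or had an unadjusted p under 0.05, against 0.0287% of genes called by edgeR and 0.163% by DESeq2. The Cux2 KO effect on the Xlr3 sum was 1.87 ± 1.00 (log2, SE) higher in females than in males at E19 (edgeR adjusted p = 0.979), and 0% of genes were called by edgeR and 0% by DESeq2 without a prior.

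From E19 to P4 the Cux2 KO effect on the Xlr3 sum was 3.21 ± 1.15 (log2, SE) higher in females (edgeR adjusted p = 0.416) and 1.71 ± 1.22 higher in males (adjusted p = 0.797). Among females no copy was called, with 0.127% of genes called by edgeR and 1.05% by DESeq2. There 3 copies and 9.34% of all genes had an unadjusted p under 0.05. Among males no copy was called or had an unadjusted p under 0.05, with 0.291% and 1.81% of genes. For the Xlr4 sum the values were 2.29 ± 1.42 and 0.34 ± 1.47. The stages were sequenced in separate rounds, but each KO group was compared with WT of its own round.

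The germline Cux1 KO at E19 gave no copy past the threshold. In females the Xlr3 sum was 3.21, 6.42, 12.9 and 13.6 CPM in Cux1 KO and 20.9, 2.38, 11.8 and 4.64 in WT (log2 fold change -0.15 ± 0.54 SE, edgeR adjusted p = 0.97). The Xlr4 sum was 0.262, 0.498, 1.01 and 0.310 CPM against 3.54, 0, 0.827 and 1.92 (log2 fold change -1.57 ± 0.82 SE, edgeR adjusted p = 0.734), with WT replicate 2 lowest and replicate 1 highest of all. In males the Xlr3 sum was at -0.43 ± 0.64 (adjusted p = 0.871) and Xlr3b at -0.62 ± 0.78. In all of these the libraries overlapped, and none of 3 copies tested had an unadjusted p under 0.05 in either sex. By edgeR 0.0576% of genes in females and 0.0979% in males were called, and by DESeq2 without a prior 0.24% and 0.688%, again with no copy. The Cux1 KO effect on the Xlr3 sum was 0.28 ± 0.96 (log2, SE) higher in females than in males (edgeR adjusted p = 0.985), with 0% of genes called by edgeR and 0% by DESeq2. Unlike at P4, the Xlr3 sum was above 0 in every Cux1 KO library at E19, where the allele was another one, and the change of the Cux1 KO effect between stages was not tested.

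**Figure D5:**
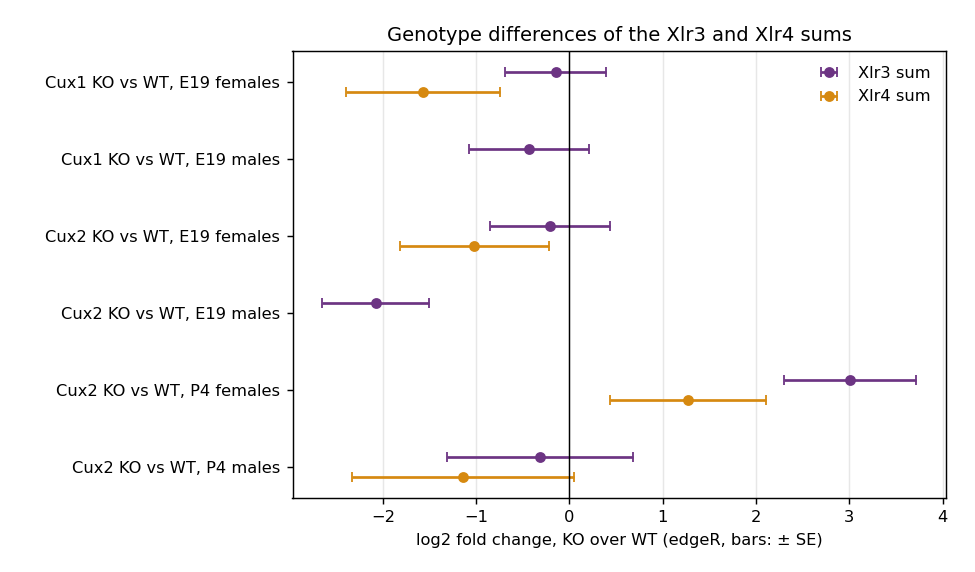
Log2 fold change of KO over WT with its SE (edgeR) for the Xlr3 sum (purple) and the Xlr4 sum (orange) in 6 comparisons within stage and sex. Cux2 KO females at P4 lay above 0 by 3.01 for the Xlr3 sum and Cux2 KO males at E19 below 0 by 2.08, the Xlr4 sum was too low to be tested in E19 males, and Cux1 KO males at P4 are left out because the group was at 0.

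Among WT libraries the means of the Xlr3 sum in females and males lay furthest apart at P4. The sum was 2.30, 0.771 and 5.82 CPM in females and 14.1, 37.5 and 3.30 in males, a mean 6.18-fold higher in males with male replicate 3 inside the female range (log2 fold change of females over males -2.64 ± 1.06 SE, edgeR adjusted p = 0.675). Xlr4b had means of 0.487 ± 0.463 and 0.512 ± 0.456 CPM, and the Xlr4 sum log2 fold changes of 0.38 ± 0.93 at E19, -0.73 ± 1.12 at P4 and -0.74 ± 0.87 at P7. Leaving out 1 library moved the Xlr3 value at P4 to between -3.59 (without female replicate 3) and -1.55 (without male replicate 2). At E19 the Xlr3 sum of females over males was -0.32 ± 0.65 and at P7, from 20.1 and 27.0 CPM in females and 27.3, 32.9 and 12.999 in males, -0.05 ± 0.42 (SE). No copy was called at any stage by edgeR or by DESeq2 without a prior. Called genes made up 0.0461%, 0% and 0.0247% of those tested at E19, P4 and P7 by edgeR, and 0.044%, 1.11% and 0.374% by DESeq2. At an unadjusted p under 0.05 there was 1 copy at P4, where 7.28% of all genes had such a p, and none at E19 or P7.

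Across stages in WT, the Xlr3 sum at P4 stood at -0.46 ± 0.77 (log2, SE) relative to E19 (edgeR adjusted p = 0.612) and P7 at 1.58 ± 0.75 relative to P4 (adjusted p = 0.249), with sex in the model. The Xlr4 sum was at -0.21 ± 0.89 and 0.34 ± 0.72. No copy was called in either step or had an unadjusted p under 0.05, whereas 46.3% and 2.29% of all genes were called by edgeR and 42.1% and 5.39% by DESeq2 without a prior. The step from E19 to P4 cannot be told apart from the sequencing round. Marker sums of several cell types in WT also changed from stage to stage, and their part in these values was not tested.

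The genes most like the Xlr3 sum over the 43 libraries, among 16989 genes with a mean of at least 1 CPM and with each stage's mean removed, were Firre (Pearson r = 0.810), Hfm1 (0.774), Gm45250 (0.774), Cdc14b (0.773) and Dmpk (0.773). Firre is a long noncoding RNA gene of the X chromosome, Hfm1 encodes a meiotic DNA helicase, Cdc14b a phosphatase and Dmpk a kinase. They shared with Xlr3 a near absence in the Cux1 KO males at P4. Firre was at 0.0347 CPM there and 25.3 ± 16.4 in WT males, Hfm1 at 0.0251 and 8.94 ± 2.27, and Cdc14b at 0 and 8.74 ± 2.69. Without those 2 libraries r was 0.540 for Firre, 0.419 for Hfm1, 0.449 for Gm45250, 0.399 for Cdc14b and 0.430 for Dmpk. For the Xlr4 sum the nearest genes were Mtf2 (0.679), Pank4 (0.679), Timm21 (0.676), Wsb1 (0.674) and Gm49396 (0.664), with r of 0.476 to 0.531 without those libraries.

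Lists of related genes were set beside the members in the 7 KO comparisons, and by edgeR no gene of any list was called in either direction. In these comparisons edgeR called 0% of all genes at P4 and 0.0287% to 0.121% at E19. Lists of this size would thus rarely hold a call, and its absence does not show that their genes were unchanged. Of the 13 other rows of the family and its paralogs, 0 to 3 could be tested. Of 29 neighbouring genes 15 to 18 were tested, with at most 3 at an unadjusted p under 0.05 in a comparison. This was in Cux1 KO males at E19 and P4 and in Cux2 KO females at P4 (10.4%, 20.5% and 7.39% of all genes). DESeq2 without a prior made 3 calls higher, 1 in Cux2 KO males at E19 and 2 in Cux2 KO females at P4. It called 0.455% and 0.828% of all genes there. Its 2 calls lower were in Cux1 KO males at P4, where it called 15.1% of all genes. Of 18 genes of ATRX and dendritic RNA transport, 16 to 18 were tested, with at most 5 at p under 0.05, in Cux1 KO males at P4, where 20.5% of all genes had such a p. DESeq2 called 3 higher, all in that comparison, where it called 15.1% of all genes. Of 20 postsynaptic genes 19 or 20 were tested, with at most 4 at p under 0.05, in Cux1 KO females at E19 and Cux1 KO males at P4 (6.87% and 20.5% of all genes). The 4 DESeq2 calls higher and 1 lower were all in Cux1 KO males at P4. Of 8 X dosage genes 6 to 8 were tested, with at most 1 at p under 0.05 and 1 DESeq2 call lower, again in Cux1 KO males at P4. In Cux2 KO females at P4, where the Xlr3 copies had higher means, the median log2 fold change was 0.15 over the ATRX and dendritic RNA genes and 0.42 over the postsynaptic genes, against 0.02 over all genes. In Cux1 KO males at P4 it was 0.10 and 0.05, against -0.18 over all genes. In Cux2 KO males at P4 it was 0.06 and -0.21, against -0.004 over all genes. Between WT females and WT males at P4 it was -0.51 over the postsynaptic genes, against -0.01 over all genes, with WT females lower. A link of these medians with Xlr3 was not tested. Camk2a, whose mRNA XLR3B is known to hold back, was singled out after its values had been seen. In WT edgeR called it lower from E19 to P4, by -1.43 ± 0.29 (log2, SE; adjusted p = 0.0005). From P4 to P7 it was called higher, by 2.15 ± 0.46 (adjusted p = 0.0227). These steps called 46.3% and 2.29% of all genes, and the first cannot be told apart from the sequencing round. In the first step 6 genes of its list were called lower and 2 higher, of 17 tested. Among the 20 postsynaptic genes 13 were called lower and 2 higher. By edgeR Camk2a was called in none of the 7 KO comparisons, and no Xlr copy was called in either WT step. Marker sums of several cell types changed over the same steps, and their part in the Camk2a values was not tested. A link between Camk2a and Xlr3b was not tested either.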

How the data were processed

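RNA-seq was made from GFP+ L2/3 neurons of 43 samples. Per the study's methods, the authors used hisat2 (GRCm39; 60-nt reads; Y masked in females), a ceiling on duplicates, and featureCounts with primary alignments only. The deposited values are raw counts per Ensembl gene. The strand setting and the treatment of multi-mapping reads beyond this are not given in the sources used here. No library pair of a group agreed within sampling noise (53 pairs, lowest chi-square per degree of freedom 7.789).

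KO and WT were compared within stage and sex with edgeR 4.0.16 (R 4.3.3, quasi-likelihood test, TMM, filterByExpr, Benjamini-Hochberg over all genes), only the compared groups in a fit. The fits kept edgeR's default prior count, and a prior count of 2 was used for the log2 values that were correlated. Sums were tested on the table with the copies replaced by their sum. A gene was called below an adjusted p of 0.05 when its log2 fold change also exceeded 0.5 (E19) or 1 (P4, P7) in size, and interactions were called on the p alone. Alternatives were DESeq2 1.42.0 with and without a prior, its size factors in edgeR, no filter, all groups of a stage, both sexes, a replicate block and leaving out each library. Scripts were tested on simulated data. Positions were taken from GENCODE M39 (56236 of 56980 identifiers matched), and sequences from its transcripts, GRCm39 and RefSeq.

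The members, the lists (family, neighbours within 500 kb, X dosage, ATRX and dendritic RNA, postsynaptic, cell type markers) and the tests were chosen with earlier results of these data known. All members are named, with the 5 most correlated genes per sum and any list gene called by edgeR in a KO comparison (there was none).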

Additional observations from a re-analysis of the deposited data

Results flagged for a closer look

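Of 48 checks of a copy or sum in a group of 4 E19 libraries, 4 found a library apart from the other 3 by Dixon's test (chance flags about 1 in 20 groups). Xlr3a was at 0.217 CPM in Cux2 KO female replicate 1, the next library being at 2.13. Xlr4a was at 1.35 CPM in Cux2 KO female replicate 2, with the next at 0.455, and at 0 in Cux2 KO male replicate 2, with the next at 0.203. Xlr4b was at 0.169 CPM in Cux1 KO female replicate 3, with the next at 0.131.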

How the results depend on the processing

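Over the alternatives, copies in the KO comparisons kept direction and side of the threshold in 318 fits, changed sign in 39 and passed the threshold in 16, and the sums did so in 431, 32 and 9. All values here are log2 fold changes unless called genes. No copy or sum that was called under any setting changed sign under another. The cause of each change was not tested.

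Cux1 KO males at P4 passed with DESeq2 without a prior (Xlr3 sum -11.53, Xlr4 sum -7.88), with a prior (Xlr3 sum -2.67) and with all P4 groups in one fit (-12.53 and -8.89), all fitted values against a group at 0 and no bounds. In Cux2 KO females at P4 the Xlr3 sum passed with DESeq2 (2.99; with a prior 1.08). In Cux2 KO males at E19 the Xlr3 sum was -2.06 and Xlr3b -2.25 with no filter, and leaving out 1 library gave -2.46 to -1.72 and -2.64 to -1.89, passing only without WT replicate 3.

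Leaving out 1 library turned the sign of uncalled values, which then ranged as follows. Cux1 KO E19 females: Xlr3 sum -0.47 to 0.52 (without Cux1 KO replicate 1 or WT replicate 1), Xlr3a -0.40 to 0.51, Xlr3b -0.37 to 0.65, Xlr3c -0.73 to 0.28. Cux1 KO E19 males: Xlr3a -0.62 to 0.16, Xlr3c -1.20 to 0.059. Cux2 KO E19 females: Xlr3 sum -0.53 to 0.46 (without Cux2 KO replicate 1 or WT replicate 1), Xlr3a -0.67 to 0.24, Xlr3b -0.32 to 0.77. Cux2 KO P4 females: Xlr4b -0.13 to 1.35. Cux2 KO P4 males: Xlr3 sum -1.09 to 0.77 (without WT or Cux2 KO replicate 2), Xlr3a -0.81 to 0.58, Xlr3b -1.14 to 0.90, Xlr3c -1.21 to 0.65, Xlr4a -2.07 to 0.17. WT sexes: Xlr3 sum -0.98 to 0.034 and Xlr4 sum -0.40 to 1.45 at E19, -0.35 to 0.23 and -1.16 to 0.048 at P7. WT stages: Xlr4 sum -0.57 to 0.23 and -0.044 to 0.69. Cux1 KO by sex at E19: Xlr3 sum -0.080 to 0.95, Xlr4 sum -1.37 to 0.49. Xlr4 sum, Cux2 KO by sex at E19 -0.57 to 1.28, and by stage in males -0.70 to 0.97.

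With both sexes in one fit the sign turned for Xlr3b in Cux2 KO E19 females (-1.03), Xlr4b in Cux2 KO P4 females (-0.73), and in Cux2 KO P4 males for the Xlr3 sum (1.32), Xlr4 sum (0.069), Xlr3a (1.41), Xlr3b (1.36), Xlr3c (1.14) and Xlr4a (0.74). Replicate numbers were not shown to pair the samples, since in no comparison with 3 or more pairs was every r above 0.1, and deviations of same-numbered libraries had a mean r of -0.0521 to 0.191. With the replicate number as a block the sign turned for the Xlr3 sum (0.15), Xlr3a (0.15) and Xlr3b (0.22) in Cux1 KO E19 females, Xlr3a in Cux1 KO E19 males (0.10), the Xlr3 sum in Cux2 KO E19 females (0.066), and the Xlr3 sum (0.14), Xlr3a (0.30) and Xlr3b (0.24) in Cux2 KO P4 males, all uncalled.

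Genes called over the whole table moved more. Cux1 KO E19 females: 10, against 63 with no filter, 47 with DESeq2, 29 with its prior, 43 with both sexes and 2 to 30 leaving out 1 library. Cux1 KO E19 males: 17, against 91, 113, 73 and 43, 5 with all groups, 46 with the replicate block and 0 to 16. Cux2 KO E19 females: 5, against 46, 30, 22 and 18, 8 with all groups and 3 to 14. Cux2 KO E19 males: 21, against 63, 93 and 66, 10 with the block and 9 to 19. Cux1 KO P4 males: 0, against 3221 and 2247 with DESeq2, 2597 with all groups, and 0 to 639, the last without Cux1 KO replicate 2. Cux2 KO at P4: 0, against 179 and 42 with DESeq2 in females and 362 and 75 in males (1 and 4 with all groups, 11 and 11 with both sexes), and 0 to 1 leaving out 1 male. WT sexes: at E19 8, against 13 with DESeq2; at P4 0, against 5 with no filter, 238 and 85 with DESeq2 and 7 with all groups; at P7 5, against 75 and 12, 0 with the block and 0 to 3. P4 to P7: 480, against 1187 with DESeq2 and 239 to 519. Cux2 KO by sex at P4: 0, against 284 and 0 to 4. By stage: 26 in females, against 229 and 17 to 86, and 59 in males, against 27 with no filter, 416 and 19 to 174. Depth limits the Xlr4 copies most, since single counts decide their values at E19.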
